A study of Rattus norvegicus with 12 samples.

Results

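The comparison described here is that of lifelong access to voluntary exercise (EX) with life in a standard cage (SED), measured as transcript levels in the left ventricle of the rat heart. It used 8 of the 12 arrays of the study, the 4 labelled EX and the 4 labelled SED. All animals were female Sprague-Dawley rats from Charles River, and were 16 months old. No allele or drug is named for any group, and access to activity was the only difference that the labels name. The EX rats had regular access to exercise throughout life, and the SED rats never left their cage. The remaining 4 arrays (PA) came from rats that were placed in a large box for physical activity on a twice-weekly schedule, and they entered here only the filter on dim probe sets and the estimate of the spread between arrays.

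Biotin-labelled cRNA was made from 6 µg of total RNA and hybridised to Affymetrix Rat Genome GeneChips. There a transcript is read by several short probes, which together form a probe set. Each array held a pool of rats. The design text gives 12 animals per group and 4 animals per array, which would fill fewer arrays than the 4 listed for each group, so which animals lie behind which array is not settled. The p-values below therefore measure the spread between pooled arrays, not between animals. How far the rats ran is not given in the sources used here.

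Voluntary running places a repeated volume load on the left ventricle. The adult ventricle takes most of its energy from fatty acids burned in mitochondria, and endurance training is known for a physiological form of growth in which the fetal genes of pressure overload, such as the natriuretic peptides, stay low. The growth signal of that form runs through Igf1 and Akt, and the coactivator Ppargc1a is the best known regulator of mitochondrial genes in trained muscle. With age the ventricle gains matrix and leukocytes, so genes of both were included among the groups examined.

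Values were analysed as deposited, on a log2 scale. Probe sets in the upper 60% by mean over the 12 arrays were tested, 18626 of 31042, which put the lower limit at 4.94. A gene was represented by its brightest tested probe set, which gave 10244 genes. Differences are EX minus SED on the log2 scale, so that a difference of 1 is 1 log2 unit. SED 1 stood apart from the other arrays. Its mean correlation with its own group was 0.941 against 0.968 to 0.987 for the other 11 arrays, and the SD of its residuals was 0.648 against 0.243 to 0.364. It also had the largest difference between the 3' and 5' probe sets of Gapdh, 1.56 against 0.96 to 1.35, a measure that grows as RNA is shortened. The same measure for beta-actin hardly set SED 1 apart, at 1.70 against 1.37 to 1.67 for the other arrays. SED 3 stood apart in leukocyte and complement genes, given below. Every main result is therefore given with and without SED 1 and SED 3, the latter resting on SED 2 and SED 4 alone.

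The labelled tissue matched its markers. Myh6, Tnni3, Tnnt2, Mybpc3, Ryr2, Myl2 and Myl3, which mark heart muscle, lay between 12.67 and 13.22 on all 8 arrays. The skeletal muscle markers Myh4, Myod1 and Actn3 were under the filter, and the bright probe set named Myh1 (12.69 to 12.84) is uncertain because myosin heavy chains are near-identical. The atrial light chain Myl7 varied widely and within both groups, at 10.12, 4.09, 10.88 and 4.23 on EX 1 to EX 4 and at 6.85, 8.70, 9.01 and 7.24 on SED 1 to SED 4. EX 1 and EX 3 were thus high and EX 2 and EX 4 low for Myl7, with SED between them, so the difference of -0.62 (SE 1.38, adjusted p = 0.856 in limma) carries no direction.

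With all 8 arrays, 0 of the probe sets were past the threshold of 0.05 for the adjusted p in limma, and the smallest adjusted p was 0.0808. At an unadjusted p under 0.05 there were 2906 probe sets, 15.6% of those tested, of which 1732 had the higher mean in EX and 1174 the lower. Quantile normalization turned that split to 1141 higher and 1493 lower. Among genes, 1324 (12.9%) were at an unadjusted p under 0.05, 714 of them higher in EX (6.97%) and 610 lower (5.95%). Differences were small, with a median size of 0.14 over all genes against a median SE of 0.15, and 31 genes differed by 1 or more, 26 higher and 5 lower.

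Tc2n had the largest difference of the genes with the smallest p. It encodes a protein with tandem C2 domains, and its level was 6.91, 6.97, 7.02 and 6.66 on the EX arrays against 6.04, 4.92, 5.52 and 4.95 on the SED arrays. Every EX array lay above every SED array, and SED 1 and SED 3 were the SED arrays nearest to EX. The difference was 1.53 (SE 0.23, 2.89-fold, adjusted p = 0.0939 in limma). Without SED 1 and SED 3 it was 1.96 (3.88-fold, adjusted p = 0.00338), and Tc2n then rose past the threshold, alone among the 10244 genes (0.00976%). The other probe set past the threshold in that fit, of 2 in all (0.0107% of those tested), has no listed gene (0.77, adjusted p = 0.0354). Leaving out SED 1 alone gave 2 probe sets past the threshold, Tc2n (1.76, adjusted p = 0.00895) and a dim probe set of N4bp1 (1.33). Leaving out EX 2 alone gave 1, with no listed gene (1.11, adjusted p = 0.0142). Weighting the arrays by their quality in limma, with a weight of 0.147 for SED 1, gave 8, among them Tc2n, Ing3, Ripor1 and Inafm1.

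The 12 genes with a higher EX mean and the smallest p were Tc2n, Ing3, Ccm2l, Steap2, Akap9, Polr1h, Sft2d3, Tmco1, Nln, Fam168a, Mterf1 and Ntng1. All 12 had EX above SED on every array, with differences of 0.41 to 1.53 and adjusted p-values of 0.0939 to 0.134 in limma, and none passed the threshold with all arrays. For comparison, 3.45% of all genes had EX wholly above SED; since these genes were picked by p, their lack of overlap is a description. All 12 kept a higher EX mean without SED 1 and SED 3, and the difference was larger there for 5 of them.

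Tmco1, a channel that lets calcium out of an overfilled endoplasmic reticulum, lay at 7.72, 8.51, 8.36 and 7.88 in EX and at 7.17, 6.73, 7.35 and 6.81 in SED. EX lay above SED throughout, with SED 3 the nearest, and the difference was 1.10 (SE 0.20). Without SED 1 and SED 3 the difference was 1.35 (adjusted p = 0.0985). Steap2, a metalloreductase that reduces iron and copper, lay at 8.05, 7.72, 8.34 and 8.17 in EX and at 7.04, 7.32, 7.25 and 7.29 in SED. Its difference was 0.85 (SE 0.14), and 0.77 without SED 1 and SED 3. SED 1 was the lowest SED array for Steap2, and the other 3 lay close together.

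Ing3, a chromatin-reading subunit of the NuA4 histone acetyltransferase, lay at 7.41, 7.23, 7.39 and 7.34 in EX and at 6.40, 6.59, 6.78 and 6.88 in SED. The EX arrays were close together and the SED arrays spread below them, for a difference of 0.68 (SE 0.11). Polr1h, a subunit of RNA polymerase I, which transcribes ribosomal RNA, lay at 7.50, 7.44, 7.40 and 7.64 in EX and at 6.92, 6.93, 6.90 and 6.82 in SED. Its SED arrays were nearly equal, SED 1 and SED 3 included, and the difference was 0.60 with all arrays and 0.62 without those arrays. Mterf1, a factor that ends mitochondrial transcription, lay at 8.14, 8.10, 8.10 and 7.97 in EX and at 7.56, 7.66, 7.76 and 7.69 in SED, with differences of 0.41 and 0.40.

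Ccm2l, a relative of the cerebral cavernous malformation gene Ccm2 that acts in endothelium, lay at 7.61, 7.86, 7.64 and 7.48 in EX and at 7.02, 7.18, 6.94 and 7.04 in SED (difference 0.60, SE 0.10). Akap9 anchors protein kinase A at the Golgi and the centrosome. Its brightest probe set differed by 0.67 and its other tested probe set by 0.05, so the gene's direction rests on 1 of its 2 probe sets. Sft2d3, of a family that acts in vesicle traffic to the Golgi, differed by 0.72 (SE 0.13). Nln, the peptidase neurolysin, differed by 0.83, Ntng1, a membrane-bound netrin, by 0.83, and Fam168a by 0.77. SED 1 was the lowest SED array for Nln, at 4.88 against 5.50 to 5.68.

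**Figure D1:**
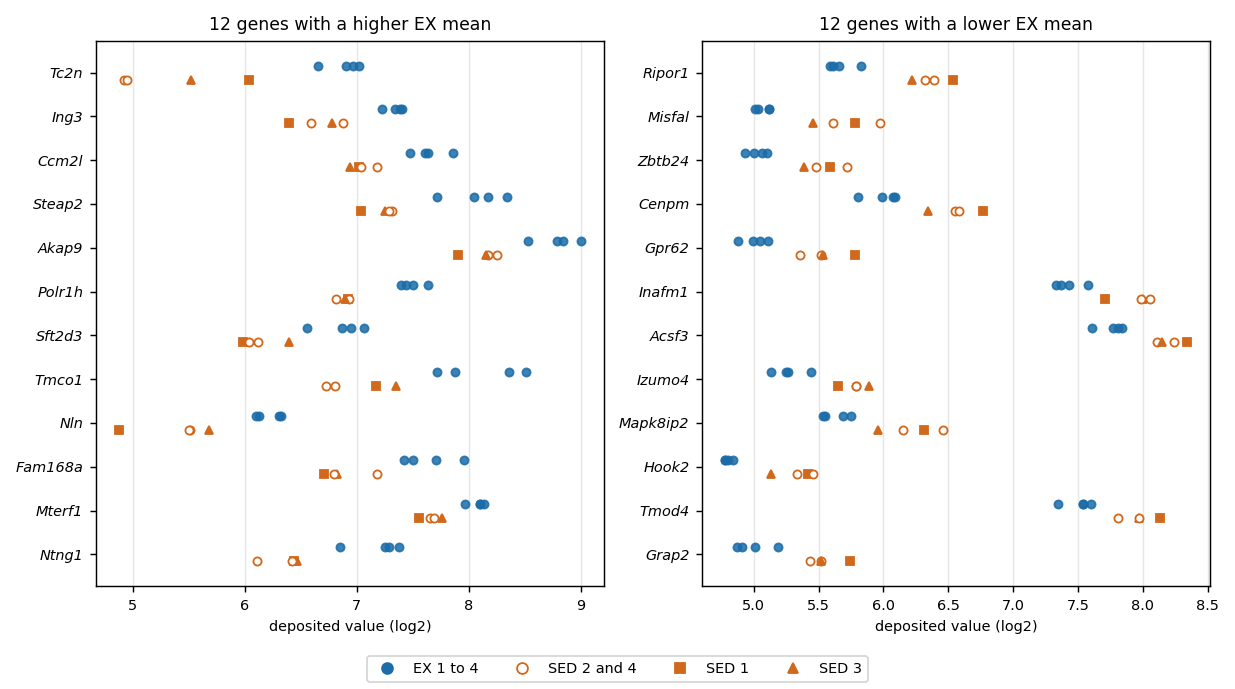
Deposited log2 values (x axis) of the 12 genes with a higher and the 12 with a lower EX mean and the smallest p (y axis), 1 point per array, with EX in blue above and SED in orange below each line. EX and SED do not overlap for any of the 24, and the genes with a lower EX mean lie at lower values, 8 of 12 of them with an EX mean within 1 log2 unit of the filter at 4.94.

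The 12 genes with a lower EX mean were dimmer and their differences smaller, from -0.45 to -0.70, with adjusted p-values of 0.0808 to 0.134. EX lay wholly below SED for each, as for 3.31% of all genes, and all 12 kept that direction without SED 1 and SED 3. Of the 12, 8 had an EX mean within 1 log2 unit of the filter, against 0 of the 12 higher genes, and the part of signal level in this was not tested.

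Ripor1 had the smallest adjusted p of a gene (0.0808 in limma). It lay at 5.59, 5.83, 5.66 and 5.61 in EX and at 6.54, 6.32, 6.22 and 6.39 in SED. The difference was -0.70 (SE 0.09), and -0.68 without SED 1 and SED 3 (adjusted p = 0.0683). SED 1 was its highest SED array. Acsf3, which makes malonyl-CoA in mitochondria, lay at 7.84, 7.77, 7.81 and 7.61 in EX and at 8.34, 8.11, 8.15 and 8.24 in SED (-0.45, SE 0.09). Tmod4 caps the slow-growing end of actin filaments in striated muscle. It lay at 7.54, 7.35, 7.54 and 7.60 in EX and at 8.13, 7.81, 7.97 and 7.97 in SED (-0.46, SE 0.09).

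Inafm1 lay at 7.58, 7.37, 7.43 and 7.33 in EX and at 7.71, 8.06, 8.0 and 7.99 in SED. Here SED 1 was the SED array nearest to EX, and the difference went from -0.51 to -0.60 without SED 1 and SED 3. Its other tested probe set had the opposite sign, 0.26. The remaining 8 were Misfal (-0.64), Mapk8ip2, a scaffold of the JNK pathway (-0.59), Cenpm, a centromere protein (-0.57), Grap2, a T-cell adaptor (-0.56), Gpr62, an orphan receptor (-0.54), Hook2, a microtubule linker (-0.54), Zbtb24, a zinc finger factor (-0.52), and Izumo4 (-0.51). EX means of these 8 ran from 4.80 to 5.99. The other tested probe set of Zbtb24 differed by 0.02, and by 0.175 without SED 1 and SED 3.

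Without SED 1 and SED 3, 2632 probe sets were at an unadjusted p under 0.05 (14.1%; 1518 higher, 1114 lower), as were 1297 genes (12.7%), 654 of them higher in EX (6.38%) and 643 lower (6.28%). Of these genes 732 were among the 1324 found with all arrays, which is 55.3% of the longer list and 56.4% of the shorter, and all 732 had the same direction (346 higher, 386 lower). The fits share the EX arrays and SED 2 and SED 4, so this overlap is partly built in. Over all genes, 2451 had opposite signs in the 2 fits, but none of the 1324 did.

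The count of genes without overlap was 692 with all arrays (6.76%) and 2332 without SED 1 and SED 3 (22.8%); fewer arrays leave fewer chances to overlap. Leaving out 1 array gave 1157 without EX 1, 1055 without EX 2, 1089 without SED 1, 1093 without SED 2 and 1276 without SED 3. SED 1 was the lowest SED array for 234 of the 353 genes with EX wholly above SED, and for 43.3% of all genes.

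The genes with the smallest p without SED 1 and SED 3 added 4 higher and 2 lower genes to those already described. Kcnd2 encodes a pore subunit of the fast transient outward potassium current, which shortens the rat ventricular action potential. It lay at 9.38, 9.53, 9.60 and 9.41 in EX and at 7.71, 8.87, 8.94 and 8.54 in SED, with SED 1 far below the rest. The difference was 0.97 with all arrays and 0.78 without SED 1 and SED 3 (adjusted p = 0.0908 in limma), and its second probe set differed by 0.59 with all arrays. Senp6, a SUMO protease, had EX above SED in the same way on its brightest probe set (0.80 and 0.69), also with SED 1 lowest at 8.05. Its other tested probe set, with a mean of 9.03 against 9.31, differed by 0.145 and 0.12, and the groups overlapped there.

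Mfap3, a microfibril-associated protein, showed the reverse. It lay at 7.03, 7.41, 7.31 and 7.42 in EX and at 8.09, 6.47, 7.11 and 6.46 in SED. SED 1 was its highest array of all 8, and the difference was 0.26 with all arrays and 0.83 without SED 1 and SED 3. Ddx3x-ps1, a copy of the RNA helicase gene Ddx3x whose own signal is uncertain for that reason, differed by 0.59 and 0.72. On the lower side Ino80b, a subunit of the INO80 chromatin remodeller, differed by -0.41 and -0.68, and Krt15, an epithelial keratin, by -0.39 and -0.53.

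**Figure D2:**
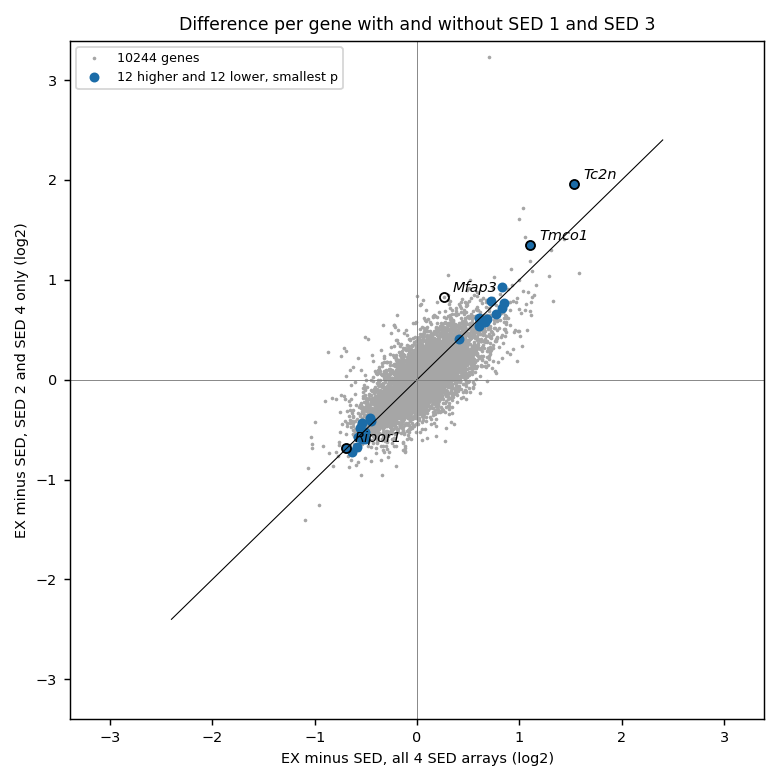
EX minus SED difference of each of the 10244 genes (log2) with all 4 SED arrays (x axis) and with SED 2 and SED 4 only (y axis), with the line of equality; blue points are the 24 genes of smallest p. The 24 lie near the line, Tc2n at 1.53 and 1.96, while Mfap3 at 0.26 and 0.83 lies well above it.

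The difference between the groups followed the signal level. The tested probe sets were put in 10 bins of equal size by mean level, from bin 1, the dimmest, to bin 10. In bin 1 the median difference was -0.12, and 36.7% had the higher mean in EX. In bin 5 the median was 0.15 with 68.3% higher, and in bin 10 it was 0.02. The probe sets at an unadjusted p under 0.05 went the same way, 104 higher and 376 lower in bin 1 and 229 higher and 26 lower in bin 7. SED 1 had the widest swing, from -0.18 in bin 1 to 0.30 in bin 5 when set against the EX mean. Bin 5 stood at 0.05 for SED 2, at 0.07 for SED 3 and at 0.15 for SED 4. These values share the EX mean, so they are not independent of each other, and without SED 1 and SED 3 its median was 0.10. After quantile normalization the medians of the bins lay between -0.07 and 0.03. Its part in the dim genes with a lower EX mean, and in the gene groups below, was not tested.

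**Figure D3:**
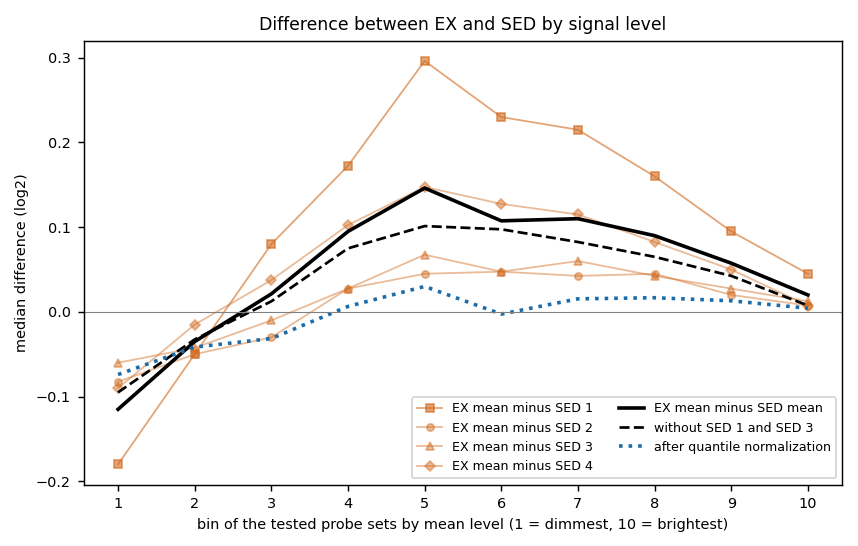
Median difference in log2 (y axis) by bin of the tested probe sets from dim to bright (x axis), for the EX mean minus each SED array (orange), minus the SED mean (solid black), without SED 1 and SED 3 (dashed) and after quantile normalization (dotted blue). The curves go from below 0 in bin 1 to about their highest in bin 5, 0.30 for SED 1, and quantile normalization brings bin 5 to 0.03.

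Several genes carry more than 1 probe set, which gives a second reading of the same gene on the same arrays. Of the 2626 such genes, 270 had a representative at an unadjusted p under 0.05, and for 181 of these (67.0%) all other tested probe sets had the same sign. The other 3500 probe sets of these genes, which are dimmer (median level 6.62 against 8.98), reached an unadjusted p under 0.05 in 22.6% of cases against 10.3% for the representatives.

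Vldlr, the receptor that takes up triglyceride-rich lipoproteins in heart, had a higher EX mean on all 4 of its probe sets. The differences were 0.29 on the brightest and 0.22, 0.50 and 1.06 on the others, and on the brightest the EX arrays lay at 10.07, 10.08, 10.29 and 10.12 against 9.55, 10.04, 9.94 and 9.89. EX was above SED throughout, though EX 1 lay only just above SED 2, and the difference there was 0.17 without SED 1 and SED 3. All 7 probe sets of Zfp91, a zinc finger ubiquitin ligase, had a higher EX mean, from 0.16 on the brightest to 0.88. N4bp1, a suppressor of NF-kappaB signalling in innate immunity, differed by 1.17 on the dim probe set and by -0.03 on the brightest. Ppargc1a differed by 0.12 on its brightest probe set, 0.30 on the next and 0.73 on the dimmest (adjusted p = 0.134).

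The groups of genes examined were 51 lists holding 1741 distinct genes, of which 1389 were tested. With all arrays no member of any list passed the adjusted threshold. Over all genes tested the median difference was 0.03 with all arrays and 0.02 without SED 1 and SED 3, and 57.0% and 54.2% had the higher mean in EX. List medians ran from -0.26 for antigen presentation to 0.15 for the mitochondrial regulators and for the endothelial flow response. Lists are described by these counts only, and no test of a list was made.

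**Figure D4:**
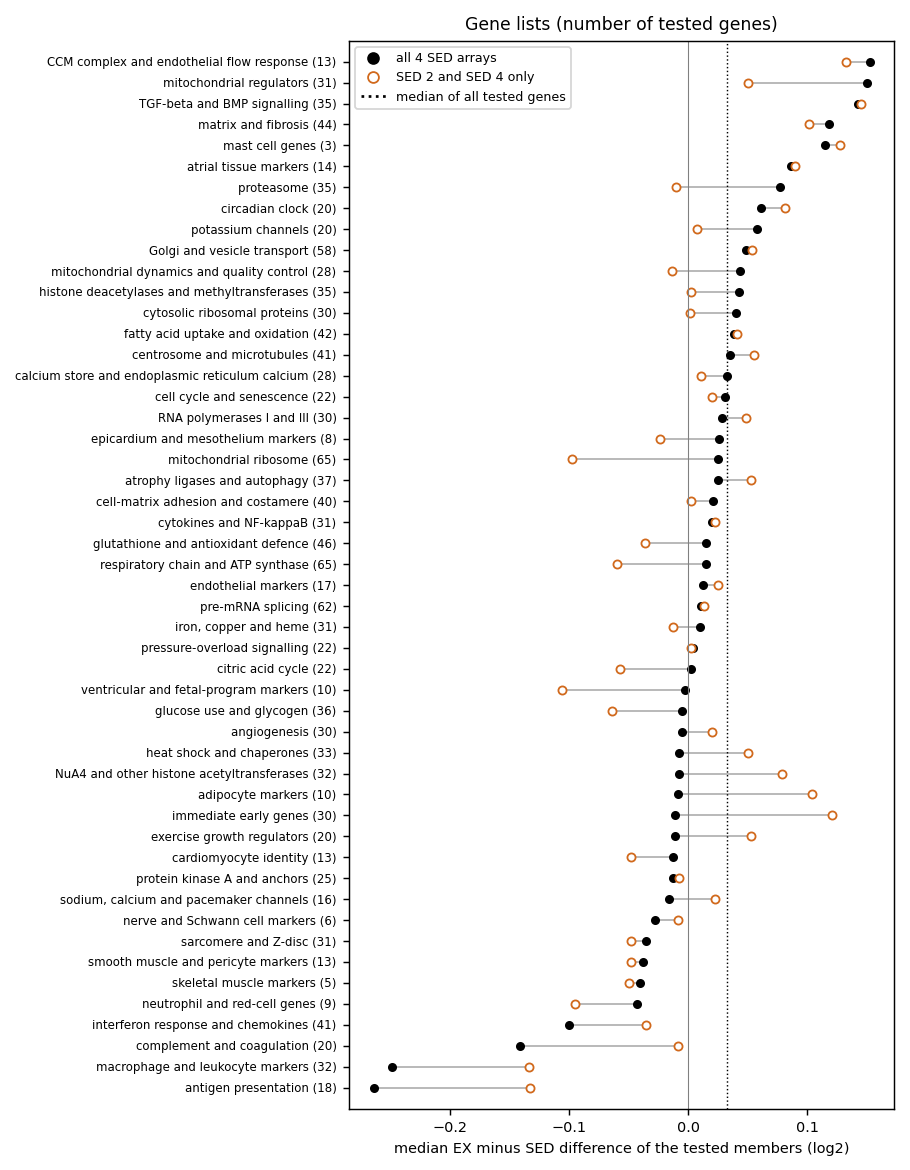
Median EX minus SED difference of the tested members of the gene lists (x axis, log2; 1 of the 51 is not drawn), with all 4 SED arrays (black) and with SED 2 and SED 4 only (open orange), and the number of tested genes in brackets. Antigen presentation goes from -0.26 to -0.13, and the respiratory chain from 0.02 to -0.06.

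Genes of energy metabolism showed no shift in EX that held in both sets of arrays. Of 65 tested subunits of the respiratory chain and ATP synthase, 37 had the higher mean in EX and 25 the lower with all arrays (median 0.02), none at an unadjusted p under 0.05. Without SED 1 and SED 3, 11 were higher and 53 lower (median -0.06), 21 of them with EX wholly below SED 2 and SED 4 where 11.1% of all genes did so. SED 1 was the lowest of the 8 arrays for 46 of the 65, its list mean standing at -0.18 relative to the mean of the 8 arrays against 0.09 for SED 2 and 0.08 for SED 4. Without SED 1 alone the median was -0.04. The mitochondrial ribosome had the same pattern, 37 higher and 27 lower of 65 (median 0.03) with all arrays and 18 and 47 (median -0.10) without SED 1 and SED 3. So had the citric acid cycle, 11 and 10 of 22 with all arrays and 5 and 17 without. The sign of the ribosome median also turned with quantile normalization (-0.03), and that of the respiratory chain with median centring (-0.01).

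Regulators of mitochondrial genes had more members higher in EX, and SED 1 was again low, with a list mean of -0.30 against -0.03 to 0.07 for the other SED arrays. Of 31, 23 had the higher EX mean and 8 the lower (median 0.15), and 18 and 13 did without SED 1 and SED 3 (median 0.05). The 3 at an unadjusted p under 0.05 were all higher (6.97% of all genes were), among them Mterf1 and Gabpa, a subunit of nuclear respiratory factor 2 (0.34 and 0.24). Ppargc1a lay at 10.64, 10.72, 10.65 and 10.77 in EX and at 10.20, 10.76, 10.68 and 10.68 in SED. Only SED 1 was below the EX range, and the difference of 0.12 (adjusted p = 0.671) was -0.03 without SED 1 and SED 3. Dnm1l, the mitochondrial fission GTPase, differed by 0.36 and Timm44, an import motor subunit, by -0.30, neither past the threshold.

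Of 42 genes of fatty acid uptake and oxidation, 25 had the higher EX mean and 16 the lower, with a median of 0.04 in both sets of arrays, close to that of all genes. Apart from Vldlr, Plin5, a coat protein of lipid droplets, had an unadjusted p under 0.05 and differed by -0.25 with SED 3 and SED 4 inside the EX range. Among 36 genes of glucose use, 18 were higher and 18 lower with all arrays, and 12 and 24 without SED 1 and SED 3 (median -0.06). Pfkp, the platelet form of phosphofructokinase, lay at 6.61, 6.99, 6.80 and 6.94 in EX and at 7.23, 7.13, 7.82 and 7.37 in SED. All SED arrays were above EX, SED 3 the farthest, and the difference was -0.55 with all arrays and -0.41 without SED 1 and SED 3. Pdk4, the kinase that shuts off pyruvate oxidation, had an EX range of 9.65 to 10.59 and a SED range of 9.42 to 10.40 and a difference of 0.20 (SE 0.26, adjusted p = 0.750), or 0.51 without SED 1 and SED 3 (adjusted p = 0.479).

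Markers of cardiac load and growth mostly overlapped between the groups. Nppa, atrial natriuretic peptide, lay at 10.74, 10.22, 10.92 and 10.05 in EX and at 9.65, 11.06, 10.20 and 9.83 in SED. The arrays interleaved, EX 1 and EX 3 being the higher EX arrays as they were for Myl7, and the difference was 0.30 (SE 0.32, adjusted p = 0.685) or 0.04 without SED 1 and SED 3. Nppb, the B-type peptide, differed by 0.14 and by -0.03 without those arrays. Myh7, the slow myosin heavy chain of the stressed ventricle, lay at 12.52, 12.19, 12.34 and 12.03 in EX and at 12.92, 12.46, 12.35 and 12.44 in SED. EX 1 overlapped SED, and the difference was -0.27 (SE 0.14, adjusted p = 0.365). Myh6, the fast chain, differed by -0.03 and Atp2a2, the calcium pump of the sarcoplasmic reticulum, by less than 0.01, both near the top of the array's range.

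Of 20 regulators of exercise-induced growth, 10 were higher and 10 lower. Eif4ebp1, the repressor of cap-dependent translation that mTOR inactivates, lay at 7.15, 7.35, 7.33 and 7.15 in EX and at 7.68, 7.58, 7.55 and 7.63 in SED. EX was below SED on every array, by 0.37 or 0.36 in size with and without SED 1 and SED 3 (SE 0.09, adjusted p = 0.134). Nrg1, the endothelial growth factor for cardiomyocytes, differed by -0.35 and -0.47, and Cited4, a coregulator that rises with swimming or running in mice, by -0.30 and -0.38. The EX mean of Nrg1 was 4.89, under the filter limit of 4.94, and that of Cited4 was 5.35. The part of signal level in these 2 differences was not tested. On its brightest probe set Igf1 differed by 0.01 (SE 0.12), and the sign changed with the scaling. Its dimmer probe sets differed by 0.14 and 0.49, and by 0.24 and 1.09 without SED 1 and SED 3. The repressor Cebpb had no tested probe set. Of 22 genes of pressure-overload signalling, 12 were higher and 10 lower, and the smallest p belonged to Prkd1, a kinase that drives deacetylases of its target class out of the nucleus (-0.38), and to Hdac4, a deacetylase of that class (-0.46).

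The potassium channel genes with the smallest p were both higher in EX. Of 20 tested, 13 had the higher EX mean and 7 the lower (median 0.06, and 0.01 without SED 1 and SED 3). With all arrays 2 were at an unadjusted p under 0.05, Kcnd2 and Kcnj3, both higher, 2 of 20 where 12.9% of all genes were at such a p. Kcnj3, a subunit of the acetylcholine-gated inward rectifier that is richest in the atrium, lay at 9.52, 9.65, 9.69 and 9.66 in EX and at 8.94, 9.22, 9.31 and 9.16 in SED. EX was above SED throughout by 0.47 (SE 0.13), by 0.44 without SED 1 and SED 3, and by 0.42 on its other probe set. EX 2 and EX 4, the arrays where Myl7 was low, were close to EX 3 for Kcnj3. The part of atrial tissue in the Kcnj3 difference was not tested. Sarcolipin (Sln), an inhibitor of the calcium pump that the atrium also favours, differed by 0.75 (SE 0.29, adjusted p = 0.243), with EX 4 inside the SED range.

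Of 16 sodium, calcium and pacemaker channel genes, 8 were higher and 8 lower. The calcium channel Cacna1d differed by -0.48 and by -0.30 without SED 1 and SED 3, and the calcium-activated channel Trpm4 by 0.30 and 0.35, both at levels within 1 log2 unit of the filter on the EX arrays. Of 28 genes of the calcium store, 16 were higher and 12 lower, and next to Tmco1 and Sln stood Stim2, a sensor of calcium in the endoplasmic reticulum. Stim2 lay at 8.65, 8.45, 8.55 and 8.45 in EX and at 7.41, 8.30, 8.10 and 8.07 in SED. SED 1 was far below the rest, and the difference went from 0.56 to 0.34 without SED 1 and SED 3.

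Genes of TGF-beta and BMP signalling and of the matrix leaned towards EX in both sets of arrays. Of 35 signalling genes, 27 had the higher EX mean and 8 the lower (77.1% against 57.0% of all genes), with medians of 0.14 and 0.15 with and without SED 1 and SED 3. After quantile normalization the median was 0.09. The list means of the groups overlapped, from -0.004 on EX 4 to 0.13 on EX 3 and from -0.16 on SED 4 to 0.01 on SED 2. The members with the smallest p went the other way. Tgfbr3, the co-receptor betaglycan, lay at 5.6, 5.76, 5.6 and 5.84 in EX and at 6.36, 6.12, 5.89 and 6.13 in SED (-0.43, SE 0.11, adjusted p = 0.134), while its dimmer probe set differed by 0.31. Acvr2b, an activin receptor, differed by -0.30 at a level near the filter. In all, 3 members were higher and 3 lower at an unadjusted p under 0.05, 17.1% against 12.9% of all genes.

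Of 44 matrix genes, 33 had the higher EX mean and 11 the lower in both sets of arrays, with medians of 0.12 and 0.10. Without SED 1 alone the median was 0.06, and after quantile normalization 0.07. The mean of the list was spread widely within the groups, from -0.06 on EX 4 to 0.19 on EX 3 and from -0.23 on SED 1 to 0.10 on SED 3, so the groups overlapped. Timp2, an inhibitor of matrix proteases, differed by -0.27 on its brightest probe set and by 0.44 on the other. Col8a1, a short-chain collagen, differed by -0.40 and overlapped. Of 40 genes of cell-matrix adhesion, 23 were higher and 17 lower. Itga1, the collagen-binding integrin chain, lay at 8.45, 8.57, 8.58 and 8.42 in EX and at 6.93, 8.13, 7.93 and 7.65 in SED. EX was above SED on every array, SED 1 lay far below, and the difference was 0.85 with all arrays (adjusted p = 0.134) and 0.61 without SED 1 and SED 3. Itga8, the integrin chain of mesenchymal cells, differed by 0.51 and 0.47. It lay at 4.96, 4.73, 5.21 and 5.5 in EX and at 4.49, 4.63, 4.62 and 4.64 in SED. All SED arrays and EX 2 were thus under the filter limit of 4.94, and the part of signal level in the Itga8 difference was not tested.

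Genes of vessels gave no common direction with all arrays. Of 30 genes of angiogenesis, 14 were higher and 16 lower, and 17 and 13 without SED 1 and SED 3. Vegfc, a growth factor of lymphatic vessels, lay at 7.84, 7.46, 8.09 and 7.90 in EX and at 7.15, 7.33, 6.92 and 7.40 in SED, with EX above SED by 0.62 (SE 0.15, adjusted p = 0.134) and by 0.46 without SED 1 and SED 3. Its partner receptor Nrp2 differed by 0.53 and 0.48, with SED 2 inside the EX range. Vegfa, the main factor for capillary growth, differed by -0.09 (SE 0.08). The 13 genes of the cavernous malformation complex and the endothelial response to flow had a median of 0.15, 8 higher and 5 lower, and a median of 0.07 without SED 1 alone. Without SED 1 and SED 3, 9 of these were higher and 4 lower (median 0.13). Klf2, the flow-induced factor, differed by 0.21 on its brightest probe set and by -0.34 on the dim one. Of 17 endothelial markers 9 were higher and 8 lower (median 0.01), and 13 and 4 without SED 1 and SED 3 (median 0.025). The junction protein Esam (0.44) and the arterial factor Sox17 (0.38, against -0.43 on its dim probe set) had the smallest p. In these whole-tissue samples fewer cells of a type and less RNA per cell cannot be told apart.

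Genes of leukocytes and of antigen presentation had the lower mean in EX, and the size of this rested in large part on SED 3. Of 32 macrophage and leukocyte markers, 6 had the higher EX mean and 26 the lower (median -0.25). SED 3 was the highest of the 8 arrays for 21 of them, and its list mean stood at 0.57 relative to the mean of the 8 arrays, against -0.18 to 0.00 for the other 7. Without SED 3 the median was -0.11, and without SED 1 and SED 3 it was -0.13, with 12 higher and 20 lower. At an unadjusted p under 0.05 there were 1 higher and 4 lower, where 6.97% and 5.95% of all genes were.

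Fcgr1a, the high-affinity Fc receptor of macrophages, lay at 7.54, 7.73, 7.66 and 7.45 in EX and at 9.51, 8.03, 8.82 and 8.01 in SED. SED was above EX on every array, SED 1 and SED 3 the farthest, and the difference was -1.0 (SE 0.29, adjusted p = 0.154) or -0.42 without them. Laptm5, a lysosomal protein of blood cells, differed by -0.39 and -0.38 on its brightest probe set, and SED 1 lay inside the EX range. Its dimmer probe set differed by -0.18, and by 0.28 without SED 1 and SED 3. The neutrophil genes S100a8 and S100a9 spread too widely to compare, S100a8 from 3.63 on SED 1 to 8.59 on SED 3, with a difference of -0.96 (SE 0.93).

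Of 18 genes of antigen presentation, 3 had the higher EX mean and 15 the lower (median -0.26), and 1 and 17 did without SED 1 and SED 3 (median -0.13). The direction was the same after quantile normalization (-0.27) and without SED 3 alone (-0.11). Psmb10, a subunit of the immunoproteasome, lay at 6.89, 6.97, 6.69 and 6.69 in EX and at 8.34, 7.06, 7.35 and 7.44 in SED. Every SED array was above every EX array, SED 1 the farthest, and the difference was -0.74 (adjusted p = 0.193) and -0.44 without SED 1 and SED 3. RT1-DMa, which loads peptides onto class II molecules, differed by -0.40 with SED 3 alone at 6.04 and the other SED arrays at 5.37 to 5.41.

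Complement and interferon genes had lower medians in EX with all arrays, which moved towards 0 without SED 3. The 20 complement and coagulation genes had a median of -0.14, and 0.00 without SED 3. C3, the central complement component, was an exception within the list. It lay at 5.52, 5.47, 5.2 and 5.51 in EX and at 5.94, 6.06, 7.26 and 6.11 in SED. SED 3 was far above the other SED arrays, yet all 4 were above EX, and the difference was -0.92 (SE 0.25, adjusted p = 0.144) and -0.66 without SED 1 and SED 3 (adjusted p = 0.142). C1qc, a chain of the first component, differed by -0.50 and by -0.18 without those arrays. The 41 interferon and chemokine genes had a median of -0.10, and 0.01 without SED 3 alone. Without SED 1 and SED 3 it was -0.04, with 14 higher and 27 lower. Of these Irf1, an interferon-induced factor, differed by -0.56 and -0.37, and Ccl5, a T-cell chemokine, by -0.57 and -0.64. Socs1, the feedback inhibitor of cytokine signalling, lay at 6.08, 6.35, 6.31 and 6.04 in EX and at 7.2, 6.58, 7.04 and 6.68 in SED (-0.68, SE 0.15, adjusted p = 0.134). EX was below SED on every array for Socs1, with SED 1 and SED 3 the highest, and the difference was -0.43 without them.

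**Figure D5:**
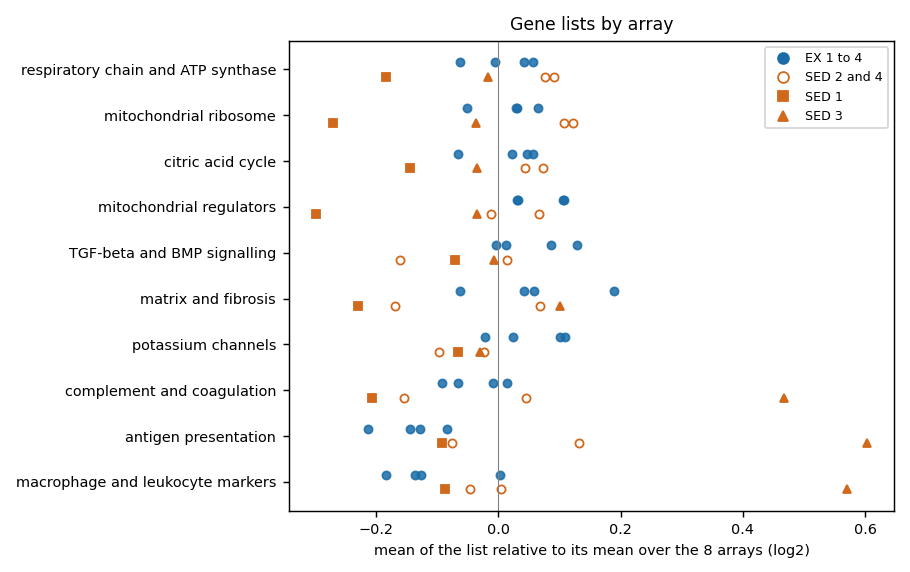
Mean of 10 gene lists on each array, relative to the list's mean over the 8 arrays (x axis, log2), with EX in blue and SED in orange, SED 1 as squares and SED 3 as triangles. SED 1 is the lowest array for the mitochondrial lists (-0.18 for the respiratory chain), and SED 3 the highest for the leukocyte list (0.57).

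The genes that make and process RNA had members on both sides. Of 30 tested genes of RNA polymerases I and III, 6 had the higher and 3 the lower EX mean at an unadjusted p under 0.05, 30.0% against 12.9% of all genes, and 4 and 1 without SED 1 and SED 3, 16.7% against 12.7% of all genes. By sign alone 16 were higher and 14 lower. Next to Polr1h stood Taf1b, a subunit of the factor that places polymerase I on ribosomal DNA. It lay at 6.19, 5.83, 5.86 and 5.83 in EX and at 4.66, 5.35, 5.63 and 5.27 in SED, with SED 1 lowest, and differed by 0.70 and 0.62. Of 32 histone acetyltransferase genes, 16 were higher and 16 lower with all arrays, and 20 and 12 without SED 1 and SED 3 (median 0.08). At an unadjusted p under 0.05 were 12.5% of them with all arrays and 18.75% without, against 12.9% and 12.7% of all genes. Dmap1, like Ing3 a subunit of NuA4, differed in the other direction, by -0.28 and -0.42. Among 62 splicing genes 5 were higher and 0 lower at an unadjusted p under 0.05, 8.06% against 12.9% of all genes, with Srsf10 (0.48; 0.04 to 0.59 on its other 4 probe sets) and Srsf4 (0.46) first. The demethylase Kdm3a differed by 0.27 and 0.35.

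Of 58 Golgi and vesicle genes, 39 had the higher EX mean (67.2%) and 19 the lower, with a median of 0.05 in both sets of arrays that was 0.01 with cyclic loess and just below 0 after quantile normalization. Next to Sft2d3 stood Stx6, a syntaxin of the trans-Golgi, with 8.39, 8.28, 8.38 and 8.38 in EX and 7.82, 8.09, 7.95 and 8.06 in SED (0.38, SE 0.12). Clip1, which tracks growing microtubule ends, differed by 0.48 on 1 probe set and by 0.00 on the other.

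Genes of protein turnover and defence showed single genes rather than groups. Fbxo32, the muscle ubiquitin ligase atrogin-1, lay at 5.95, 6.20, 6.06 and 6.12 in EX and at 5.76, 5.36, 5.64 and 5.73 in SED, with EX above SED by 0.46 (SE 0.14, adjusted p = 0.162) and by 0.54 without SED 1 and SED 3. Ulk2, a kinase that starts autophagy, differed by 0.34 and 0.31, again without overlap. The proteasome had 24 of 35 genes higher with all arrays (median 0.08) and 17 of 35 without SED 1 and SED 3 (median -0.01). Gss, which completes glutathione synthesis, lay at 6.90, 7.04, 6.87 and 7.26 in EX and at 5.64, 6.55, 6.62 and 6.45 in SED (0.70, and 0.52 without SED 1 and SED 3). Slc7a11, the cystine importer that feeds the same pathway, lay below SED on every EX array (-0.42 and -0.35) at levels near the filter. Ppox, of heme synthesis, differed by -0.54 and -0.41. Hspa1a, an inducible Hsp70 gene with a near-identical copy, differed by 0.25 (SE 0.17), and the chaperone Dnajb9 by -0.21 without overlap. The clock output gene Dbp, which follows the hour of death, differed by -0.04 (SE 0.17), and by -0.28 without SED 1 and SED 3.

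Markers of other cells that a piece of ventricle can hold had members on both sides. The 13 smooth muscle and pericyte genes had 5 higher and 8 lower, the 10 adipocyte genes 5 and 5, and the 8 epicardial genes 4 and 4. The mast cell list had 3 of 11 genes above the filter, 2 higher and 1 lower in both sets of arrays (medians 0.115 and 0.1275). The lower 1 was the tryptase Tpsb2, which differed by -0.39 and -0.58. Of the 14 atrial genes, 8 were higher and 6 lower (median 0.09), with list means of 0.25 and 0.40 on EX 1 and EX 3 and -0.22 and -0.25 on EX 2 and EX 4. At an unadjusted p under 0.05, 2 atrial genes were higher and 0 lower, 14.3% against 12.9% of all genes. Without SED 1 and SED 3, 4 were higher and 1 lower, 35.7% against 12.7% of all genes. The 6 nerve and Schwann cell genes had 3 higher and 3 lower. Npy, neuropeptide Y of sympathetic nerves, had the largest difference of them and was picked for it after its values were seen (0.85, SE 0.35, adjusted p = 0.263). Dbh, which makes noradrenaline, differed by -0.43 (SE 0.13), and Scn7a, a sodium channel of Schwann cells, by -0.33, with EX 4 inside the SED range for Scn7a. The EX mean of Dbh was 4.93, under the filter limit of 4.94, and the part of signal level in the Dbh difference was not tested. Cdkn1c, a cell cycle inhibitor, differed by 0.64 and 0.39, with SED 4 just below the lowest EX array.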

How the data were processed

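Each array was assigned to its group from its title. Values were used on the log2 scale on which the authors deposited them, for 31099 rows. MAS5 and RMA both stand in the submitters' processing notes, with no word on which of them produced the table, and no genome build is given in the sources used here. Of the rows, 57 controls were left out, and 20826 probe sets had 1 listed gene symbol, 436 several and 9780 none; only the first were named. Arrays carry no read depth, and their number limits the precision.

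A linear model of the 3 groups was fitted to the upper 60% of probe sets by mean, on all 12 arrays and with 9 residual degrees of freedom. It used limma (version 3.58.1, R version 4.3.3) with two-sided moderated tests adjusted by Benjamini-Hochberg over all 18626 probe sets at a threshold of 0.05. The fit was repeated without SED 1 and SED 3, which leaves 2 SED arrays and takes the spread from all groups. The script was tested on simulated data.

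The text names the 12 higher and 12 lower genes of smallest p, the 6 and 6 of smallest p without SED 1 and SED 3, genes past the threshold in any alternative, up to 2 members of each list at an unadjusted p under 0.05, and 16 genes set by hand: Nppa, Nppb, Myh6, Myh7, Atp2a2, Ppargc1a, Pdk4, Vldlr, Igf1, Cebpb, Cited4, Vegfa, Hspa1a, Dbp, S100a8 and S100a9. The tissue markers, and N4bp1, Zfp91 and other genes reached through a dimmer probe set, were added to these. The result of 1 list is not reported here. The comparison and the lists were chosen with earlier results of these data known. Alternatives covered scaling, the filter, an offset of 32, array weights, the mean of a gene's probe sets, the variance model, the arrays in the fit, a replicate block and leaving out each array.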

Additional observations from a re-analysis of the deposited data

Results flagged for a closer look

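For each named gene and each list, the 4 EX and the 4 SED arrays were searched for an array whose gap to its nearest neighbour took up more of the group's range than Dixon's critical value for 4 samples at the 95% level allows. This held in 19 of 320 searches, and chance marks about 1 in 20 groups. SED 1 was the array in 7 of the 19 and SED 3 in 4.

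SED 1 was the low array for Arhgap5 (8.50, the others 9.11 to 9.22), Mrps5 of the mitochondrial ribosome (6.71, the others 7.37 to 7.45), Itga8 (4.49, the others 4.62 to 4.64) and Ppargc1a (10.2, the others 10.68 to 10.76). Its list mean was low for glucose use (-0.14) and RNA polymerases I and III (-0.12), and high for sodium, calcium and pacemaker channels (0.13). SED 3 was the high array for RT1-DMa (6.04), C3 (7.26), the leukocyte markers (0.57) and the adipocyte markers (0.16). SED 2 was low for Ntng1 (6.11) and high for Psmd9 of the proteasome (7.17). Among EX arrays, EX 2 was high for Senp6 (9.88) and low for Stx6 (8.28), EX 1 was high for Taf1b (6.19), EX 3 was low for C3 (5.2), and EX 4 was high for Scn7a (9.91) and low for the pressure-overload list (-0.045).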

How the results depend on the processing

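The count of probe sets past an adjusted p of 0.05 was 0 in limma with all arrays and 0 under quantile normalization, median centring, cyclic loess, both other filters, the offset, the mean of probe sets, the trended robust variance model and the fit on the 8 arrays alone. It was 2 without SED 1 and SED 3, 8 with array weights, 4 at an adjusted p of 0.1, and 0 to 2 when each array was left out. The count at an unadjusted p under 0.05 was 5514 with no filter, 1543 in the upper 40% and 2224 to 3476 when each array was left out. Genes without overlap numbered 1175 with no filter, 393 in the upper 40%, 2332 without SED 1 and SED 3 and 918 to 1276 when each array was left out; other filters and fewer arrays alter these counts by construction. EX and SED arrays with the same replicate number deviated together only weakly (correlations of 0.12, -0.12, 0.12 and 0.13). Arrays with different numbers were not compared, so whether the numbers pair the arrays was not tested. A replicate block gave 0 probe sets past the threshold and 2795 at an unadjusted p under 0.05. Of named genes, the mean of probe sets reversed Klf2 (-0.0625), Timp2 (0.085), Sox17 (-0.0275) and Myh6 (0.12), and cyclic loess Myh6 (0.0059). Without SED 1 and SED 3, Nppb was -0.0325, Atp2a2 -0.0125 and Ppargc1a -0.025. Array weights gave -0.031 for Nppb and -0.0052 for Atp2a2. Median centring gave -0.0175 for Atp2a2 and -0.015 for Igf1, and Igf1 was -0.065 with quantile normalization and -0.0805 with cyclic loess. Leaving out each array in turn gave -0.024 to 0.25 for Nppb, -0.011 to 0.0125 for Atp2a2, -0.012 to 0.175 for Ppargc1a, -0.0675 to 0.079 for Igf1 and -0.15 to 0.13 for Dbp. The cause of these reversals was not tested.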

Other observations

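Rfx4, a transcription factor best known from the brain, was singled out after its values were seen, because it had the largest difference of any gene once SED 1 and SED 3 were left out (3.23, adjusted p = 0.179 in limma). Its level was 7.79, 7.33, 7.0 and 6.13 on the EX arrays and 8.79, 5.17, 8.99 and 2.49 on the SED arrays. The SED arrays thus spanned both the highest and the lowest value of the 8, and with all arrays the difference was 0.70 (SE 1.24).

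Polr1f, a subunit of RNA polymerase I, and Angpt1, a ligand that stabilises vessels, were likewise chosen after their values were seen, as the members of their lists with the largest differences. On the brightest of its 3 tested probe sets Polr1f differed by 1.13 (SE 0.38, adjusted p = 0.194 in limma), with a SED SD of 0.99 against an EX SD of 0.09. SED 1 lay at 4.47 and the other SED arrays at 6.11 to 6.73. Without SED 1 and SED 3 the Polr1f difference was 0.825 (adjusted p = 0.133 in limma). Angpt1 differed by 1.03 (SE 0.37, adjusted p = 0.217), with a SED SD of 0.86 against 0.26, and by 0.34 without SED 1 and SED 3.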
